A study of Mus musculus with 16 samples.

Results

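CD25- CD4+ T cells were sorted from the spleens of 4 TRaGS mice and 4 TRaWT mice, and the effect of genotype on their mRNA was measured in these 8 of the 16 libraries of the series. In TRaGS mice thyroid hormone receptor alpha, encoded by Thra, can no longer bind DNA, and TRaWT mice are wild-type littermates. The labels give no strain, age, sex or treatment, so these are not described further. Each CD25- library has a partner from CD25+ CD4+ cells (Treg) of the same mouse, which is used below only to set the 2 effects side by side. The labels call the CD25- cells naive, but CD25 and CD4 are the only sorting markers they name. Values are read counts that were divided by 1 scaling factor per library (normalised counts) from a kit that reads the 3' ends of polyadenylated transcripts.

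Thyroid hormone receptor alpha is a nuclear receptor that binds short DNA elements, often together with a retinoid X receptor, and lowers or raises transcription of the genes beside them according to whether hormone is bound. Naive CD4 T cells are small, quiescent cells that recirculate through blood and lymphoid organs. Their survival depends on interleukin-7, on weak contacts of the T cell receptor and on the balance of BCL2-family proteins. Removing DNA binding of the receptor leaves its other functions, such as those outside the nucleus, in place.

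The 8 libraries held 2679119 to 5095278 reads, recovered from the normalised counts. Defining transcripts of CD4 T cells were present. Cd4 was measured at 846 to 995 normalised counts in TRaWT and 1037 to 1131 in TRaGS, so every TRaGS library was above every TRaWT library (0.28 ± 0.24, limma adjusted p = 0.947), and the 11 genes of the CD4 T cell identity list took 0.452% to 0.544% of the reads. Il2ra, which encodes CD25, was at 72.7 to 133 in TRaWT and 65.8 to 139 in TRaGS. Thra itself had 87.2, 77.7, 189 and 134 normalised counts in TRaWT and 186, 103, 99.4 and 73.3 in TRaGS. The 2 genotypes overlapped for Thra, and since the mutation need not change the amount of this mRNA, its level does not check the labels. The related receptor gene Thrb was low, at 0 to 117 in TRaWT and 0.978 to 20.6 in TRaGS.

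Of the 8 libraries 3 stood apart, TRaGS replicate 2 the most. It held 3.71% mitochondrial mRNA against 1.26% to 2.42% in the others, and its median Spearman correlation with the other TRaGS libraries was 0.762 against 0.796 to 0.797 for those. It lay alone at one end of the first principal component, which carried 37.7% of the variance among genes whose mean was 50 normalised counts or more. TRaGS replicate 1 lay alone on the second component (17.4%) and TRaWT replicate 2 on the third (14.7%). The weights that limma gave the libraries for their precision were 0.30 to 0.89 for replicates 1 and 2 of both genotypes and 1.56 to 2.11 for replicates 3 and 4, which also carry lower and higher library numbers in the titles. With that split as a covariate limma called 6 genes, as without it. Red cell and platelet markers (3 of 11 measured above the filter) summed to 404 normalised counts here, against a range from 1.96 to 41.5 elsewhere. The single transcript Gm42418 took 21.1% of its reads and 27.1% to 41.1% of those of the others. Results are therefore given with and without TRaGS replicate 2 where they rest on it.

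Few genes differed between the genotypes beyond the modelled spread. Across 10426 genes averaging 5 or more normalised counts, limma called 6 genes (0.0575%) at an adjusted p under 0.05, and all 6 were higher in TRaGS. They were Myo6 (GRCm38 chromosome 9, 80165031 to 80311729), Bcl2 (chromosome 1, 106538178 to 106714274), Klf3 (chromosome 5, 64803388 to 64832901), Pdlim4 (chromosome 11, 54054928 to 54069014), Resf1 (chromosome 6, 149309414 to 149335663) and Smc4 (chromosome 3, 69004738 to 69034623), with whole gene spans from the GENCODE annotation. Myo6, an actin-based motor that moves towards the minus end of the filament, was the largest. Its normalised counts were 139, 119, 187 and 47.6 in TRaWT and 1117, 1456, 875 and 1036 in TRaGS. The lowest TRaGS library was above the highest TRaWT library by several-fold, and the log2 fold change was 3.31 ± 0.34 (SE, limma adjusted p = 1.33e-18). The second cytoskeletal gene among the 6 was Pdlim4, whose protein joins a PDZ and a LIM domain and binds actin-linked proteins. It had 92.8, 182, 127 and 213 in TRaWT and 435, 474, 466 and 607 in TRaGS, with no overlap and a log2 fold change of 1.74 ± 0.37 (limma adjusted p = 0.00702).

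Bcl2, whose anti-apoptotic protein guards the outer mitochondrial membrane, had 1341, 1438, 1134 and 937 normalised counts in TRaWT and 2526, 2664, 2156 and 2577 in TRaGS. The TRaGS mice lay close together, and the rise was 1.05 ± 0.21 on the log2 scale (limma adjusted p = 0.00237). Klf3, a transcriptional repressor of the Krüppel-like family, had 1913 to 2407 in TRaWT and 3475 to 4590 in TRaGS (0.87 ± 0.18, limma adjusted p = 0.00702). Resf1, which takes part in silencing of endogenous retroviruses, had 1627, 1006, 1054 and 1167 against 1776, 3250, 2198 and 2352 (0.97 ± 0.21, limma adjusted p = 0.00702). Its lowest TRaGS value was near its highest TRaWT value.

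Smc4, a core subunit of condensin, was the one called gene whose genotypes overlapped. It had 6459, 5965, 5401 and 4772 normalised counts in TRaWT and 8624, 16718, 6167 and 7117 in TRaGS (0.67 ± 0.15, limma adjusted p = 0.0275). Without TRaGS replicate 2 the log2 fold change of Smc4 was 0.37 (adjusted p = 0.950) and that of Resf1 was 0.81 (adjusted p = 0.141), and neither was called. Myo6 (3.17), Pdlim4 (1.76), Klf3 (0.93) and Bcl2 (1.01) were called without it. Other left-out libraries ended calls of these genes: Klf3 was called without TRaGS replicate 2 or TRaWT replicate 4 but in none of the other 6 such fits (adjusted p up to 0.208, without TRaWT replicate 1). Over all 24 alternatives the call was lost in 1 for Myo6, 6 for Bcl2, 8 for Pdlim4, 11 for Klf3, 12 for Resf1 and 18 for Smc4.

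**Figure D1:**
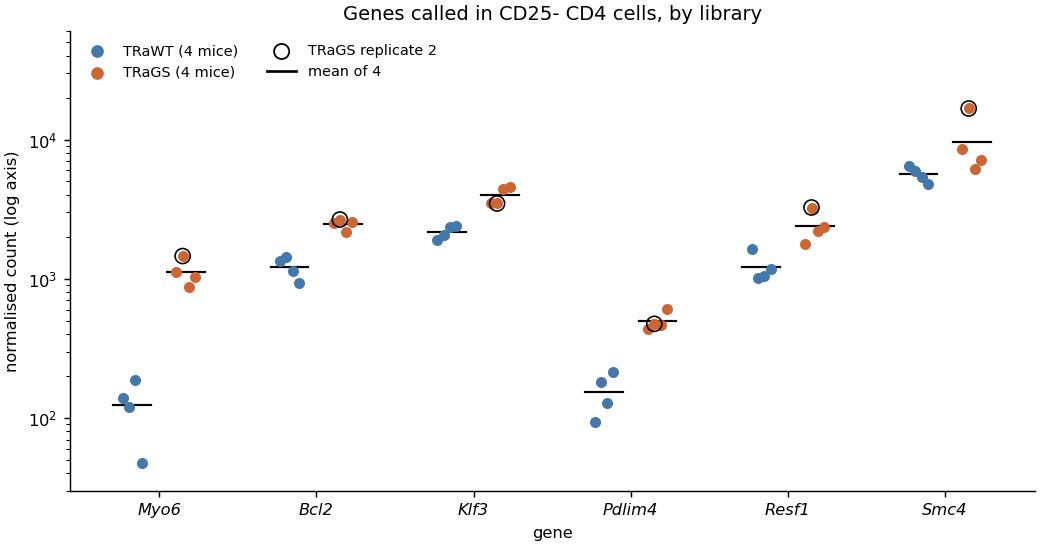
Normalised counts (log axis) of the 6 genes called in CD25- CD4 cells, 1 point per library, with TRaWT in blue, TRaGS in orange and a black bar for the mean of 4 mice. The circled TRaGS replicate 2 is the highest point for Smc4 (16718) and Resf1 (3250), and also for Myo6 and Bcl2, while for Klf3 it is the lowest TRaGS point (3475).

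The test borrowed the spread of each gene from genes of similar level, because limma found no more variation between genes than the trend explained. A test on each gene's own spread called 0 genes, with 517 at an unadjusted p under 0.05 and Myo6 at an adjusted p of 0.490, while limma with the trend had 539 at that unadjusted level, edgeR called 3 and DESeq2 called 10. The count was 1 without TRaGS replicate 1 or TRaWT replicate 3, and 3 without TRaWT replicate 1, 2 or 4.

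Because the mutated receptor has lost DNA binding, the promoter windows of the called genes are shown for the letters around the start of transcription. RefSeq promoter windows (GRCm38.p6, 250 bases before to 50 after the start) were found for 5 of the 6 genes. The thyroid half-site AGGTCA was searched on both strands, alone and as 2 copies of it in the same orientation with NNNN between them. Of 32851 windows of all genes 16.3% held the half-site and 5 held the pair, and of 9939 windows of the tested genes 1196 and 0 did. The half-site was in 0 of the 5 windows of called genes, which says only that these letters are not within these 300 bases. The windows of Myo6 (chr9:80164784-80165083, plus strand), the gene with the largest change, and of Bcl2 (chr1:106714241-106714540, minus strand), the gene with the smallest p for a difference from the effect in Treg (below), were as follows, with no capitals because no searched motif was present.
Myo6: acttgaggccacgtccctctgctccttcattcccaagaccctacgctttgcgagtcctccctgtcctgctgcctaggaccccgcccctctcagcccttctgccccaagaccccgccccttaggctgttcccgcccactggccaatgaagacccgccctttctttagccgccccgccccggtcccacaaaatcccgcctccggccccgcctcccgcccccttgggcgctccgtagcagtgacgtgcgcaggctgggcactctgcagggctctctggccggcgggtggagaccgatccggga
Bcl2: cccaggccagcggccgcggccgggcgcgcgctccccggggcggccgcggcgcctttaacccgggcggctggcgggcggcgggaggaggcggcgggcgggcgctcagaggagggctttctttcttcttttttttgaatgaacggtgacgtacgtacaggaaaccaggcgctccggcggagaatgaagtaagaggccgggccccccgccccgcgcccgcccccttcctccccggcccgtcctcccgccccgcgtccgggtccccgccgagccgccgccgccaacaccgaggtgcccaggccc

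No gene was called lower in TRaGS by limma, and the smallest adjusted p among lower genes was 0.510. Beyond the calls, 281 genes (2.7%) were higher and 258 (2.47%) lower at an unadjusted p under 0.05. The genotypes did not overlap, with TRaGS higher, in 149 genes (1.43%) and, with TRaGS lower, in 180 (1.73%). Without TRaGS replicate 2, 319 genes were higher without overlap (3.06%) and 318 were lower (3.05%). Fewer libraries are easier to separate, so these shares cannot be set against those of all 8 libraries. Directions were nearly balanced, with 5139 positive and 5287 negative log2 fold changes and a median of -0.01. Among the 5796 genes with a mean of at least 50, however, 3161 were positive and 2635 negative, with a median of 0.05. Of these more abundant genes 127 were higher and 78 lower without overlap. TRaGS replicate 2 was the highest library for 2065 of the 5796. Without it 195 were higher and 176 lower without overlap, so the lean to higher genes was smaller. Gene groups below are set beside these figures.

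Next to the called genes stood Sh3bp5 and Pim1. Sh3bp5, which binds and inhibits the kinase BTK, had 216, 344, 207 and 191 normalised counts in TRaWT and 527, 1053, 508 and 438 in TRaGS (1.34 ± 0.33, limma adjusted p = 0.0623). Pim1, a serine/threonine kinase induced by cytokines that act through STAT5, had 343, 607, 610 and 628 against 841, 1445, 1104 and 1005 (1.02 ± 0.26, limma adjusted p = 0.109). Both separated the genotypes without passing, and Sh3bp5 was called in 2 of 24 alternatives (array weights and DESeq2). Further non-overlapping genes of small p on the higher side were Hmgn5 (a nucleosome-binding protein), Dnaja2 (a co-chaperone), Tmem64 and Paip2 (which restrains poly(A)-binding protein). Their log2 fold changes ran from 0.97 in Dnaja2 to 1.54 in Tmem64, with a limma adjusted p of 0.611. TRaGS replicate 2 was the highest library for each of these 4 genes: Tmem64 had 132, 66.8, 113 and 47.6 in TRaWT and 185, 452, 204 and 206 in TRaGS.

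On the lower side the 12 non-overlapping genes of smallest p were mostly genes of modest level. Igfbp4, which encodes a binding protein for insulin-like growth factors and is a transcript of naive T cells, was the most abundant. It had 1699, 1514, 1201 and 1177 normalised counts in TRaWT and 948, 907, 573 and 779 in TRaGS (-0.81 ± 0.24, limma adjusted p = 0.510), and it was called with array weights and with quantile normalisation. Daam1, a formin that assembles straight actin filaments, had 136, 162, 133 and 111 against 7.82, 4.95, 45.1 and 75.6 (-2.71 ± 0.78). Gpd2, the mitochondrial glycerol-3-phosphate dehydrogenase and a classic target of thyroid hormone, had 299, 372, 158 and 162 against 134, 11.3, 119 and 119 (-1.73 ± 0.51, and -0.89 without TRaGS replicate 2). In 3 TRaGS mice Gpd2 thus had nearly equal values just under the lowest TRaWT mouse.

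Hist2h2ac, a replication-dependent histone H2A gene, was nearly absent in TRaGS, with 0.978, 2.12, 0 and 3.44 against 40.4, 24.2, 86.0 and 74.4 in TRaWT, and it too was called with array weights and DESeq2. Anxa5, a phospholipid-binding annexin, had 153 to 184 in TRaWT and 14.1 to 66.5 in TRaGS. The guanylate-binding proteins Gbp9 and Gbp8, interferon-induced GTPases of host defence, had 213 to 338 and 222 to 372 in TRaWT and 74.5 to 139 and 80.2 to 176 in TRaGS. The others were Pced1b, Gpaa1 (a subunit of the GPI transamidase), Erc1, Prkdc (the catalytic subunit of DNA-dependent protein kinase) and Abl1 (a tyrosine kinase), with log2 fold changes from -2.87 to -1.18. All 12 had limma adjusted p from 0.510 to 0.788.

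Functional groups were examined as 40 lists, and each is described by the number of members with positive and negative log2 fold changes and by their median. The median was positive in 29 lists and negative in 11, beside -0.01 for all genes tested and 0.05 for genes with a mean of at least 50. This lean rests in part on TRaGS replicate 2, without which more medians turned negative than turned positive. Krüppel-like factors went from 0.21 to -0.07 and cytosolic ribosomal proteins from 0.07 to -0.08, while cell cycle genes went from -0.06 to 0.06. In 16 lists the sign of the median was the same in all 11 alternatives run for the lists. The alternatives were a pseudocount of 5, quantile and upper-quartile scaling, and leaving out each of the 8 libraries. In only 2 lists did the members' mean log2 level separate all 4 TRaGS from all 4 TRaWT libraries. These were the interferon-stimulated genes, lower in TRaGS, and the condensin, cohesin and SMC subunits, higher in TRaGS. A called gene was held by 6 lists: actin regulation (Myo6 and Pdlim4), BCL2 family (Bcl2), naive factors and Krüppel-like factors (Klf3 in both), retroelement silencing (Resf1) and condensin (Smc4).

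**Figure D2:**
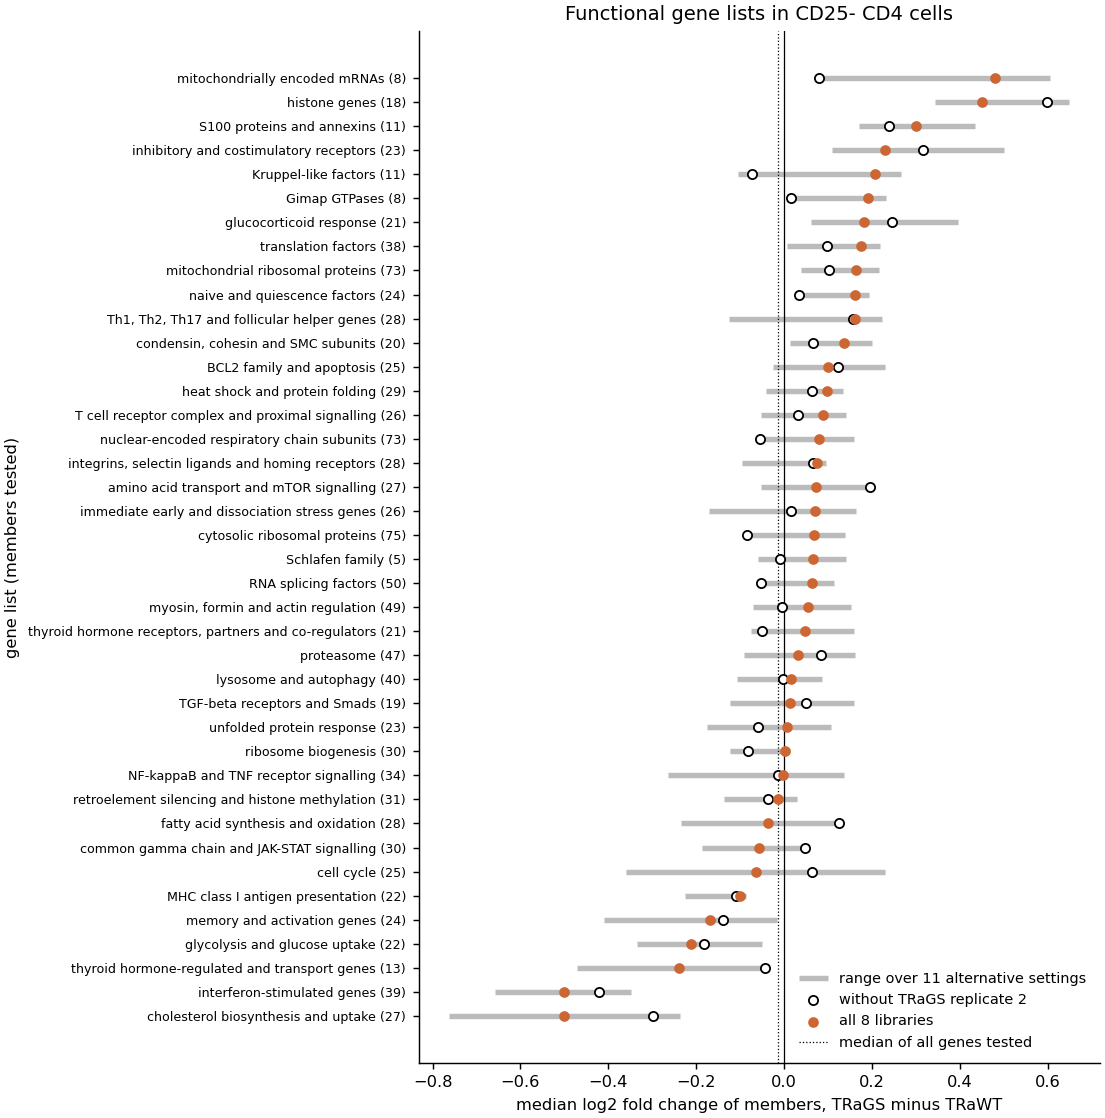
Median log2 fold change (TRaGS minus TRaWT) of the members of 40 functional gene lists, with the number of members tested in brackets. Orange points use all 8 libraries, open circles leave out TRaGS replicate 2, grey bars span 11 alternative settings and the dotted line is the median of all genes tested (-0.01), and interferon-stimulated genes and cholesterol genes lie lowest (both -0.50).

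Interferon-stimulated genes, the antiviral programme that interferon switches on, were mostly lower in TRaGS. Of 39 members tested 33 had negative and 6 positive log2 fold changes, with a median of -0.50 against -0.01 over all genes tested, and 0 were called. The median ran from -0.66 to -0.35 over the 11 alternatives and was -0.42 without TRaGS replicate 2, again with 33 negative. The members' mean log2 level was 7.00, 6.50, 6.70 and 6.72 in the TRaWT libraries and 6.18, 5.59, 6.26 and 5.95 in the TRaGS libraries. The highest TRaGS library was below the lowest TRaWT library. This list was already known to be lower from earlier results on these data, so its direction is not independent evidence.

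Within the list the spread between mice was large. Isg15, a ubiquitin-like modifier, had 36.3, 163, 40.3 and 105 normalised counts in TRaWT and 3.91, 7.07, 22.6 and 22.9 in TRaGS (-2.56 ± 1.01, limma adjusted p = 0.943). Usp18, the protease that removes ISG15 and damps interferon signalling, had 68.6, 43.4, 27.2 and 34.1 against 19.6, 1.41, 22.6 and 4.58. Isg15 and Usp18 were the only 2 of 39 members without overlap, against 1.73% of all genes tested that were lower without overlap. Xaf1, an interferon-induced antagonist of the caspase inhibitor XIAP, had 86.4 to 252 in TRaWT and 43.0 to 89.4 in TRaGS. The 6 positive members were Oas3, Trim30a, Epsti1, Zbp1, Ifi27l2a and Irf7, of which Oas3 had the highest value at 1.38 ± 1.37.

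The promoter of Isg15 is shown because it holds the core letters of the element that interferon-activated factors bind. The core of the interferon-stimulated response element, a pair of GAAA units with NN between them, was searched on both strands, with overlapping matches counted. It was in 15 of 35 promoter windows (42.9%) found for 28 of the 39 members, against 3.44% of all windows and 3.29% of windows of tested genes. Members were listed because interferon induces them, so a high share follows from that choice and says nothing about genotype. The thyroid half-site was in 7 of the 35 windows, against 16.3% of all windows and 1196 of 9939 windows of tested genes. The Isg15 window (chr4:156200769-156201068, minus strand) held 3 overlapping matches, whose GAAA letters are in capitals.
Isg15: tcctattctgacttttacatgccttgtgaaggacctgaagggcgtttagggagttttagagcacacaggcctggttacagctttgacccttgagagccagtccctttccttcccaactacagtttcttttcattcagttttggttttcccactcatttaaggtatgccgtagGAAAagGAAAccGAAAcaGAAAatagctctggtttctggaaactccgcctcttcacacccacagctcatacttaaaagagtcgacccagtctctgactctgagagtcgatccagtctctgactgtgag

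**Figure D3:**
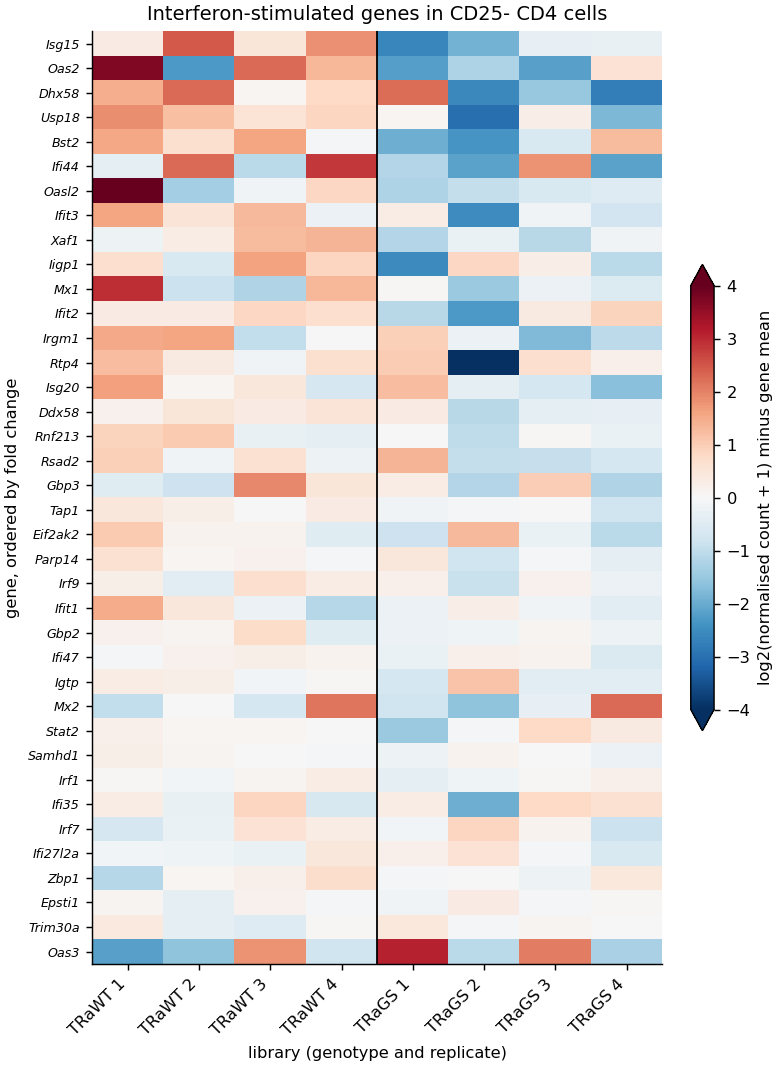
Level of 38 interferon-stimulated genes (rows) in the 8 CD25- libraries (columns), as log2(normalised count + 1) minus the gene's mean over the libraries, red above and blue below it. Most rows are redder in the TRaWT columns, and single genes such as Oas2 and Oasl2 are high mainly in TRaWT replicate 1.

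Genes of cholesterol synthesis and uptake had the same median as the interferon group but less agreement between mice. Of 27 members 19 were negative and 8 positive, with a median of -0.50 (-0.76 to -0.24 over the alternatives, and -0.30 with 17 negative and 10 positive without TRaGS replicate 2), and 0 were called. The members' mean log2 level was 5.28 to 5.61 in TRaWT and 4.77, 4.13, 5.29 and 5.18 in TRaGS, so TRaGS replicates 1 and 2 were low and replicate 3 lay within the TRaWT range. Cyp51, the lanosterol demethylase, had 106 to 202 in TRaWT and 132, 14.1, 127 and 91.7 in TRaGS. The log2 fold change of Cyp51 was -1.03 ± 0.57 with all libraries and -0.30 without TRaGS replicate 2. Tm7sf2, a sterol reductase, was the 1 member without overlap, at 1.67 to 71.0 against 0 to 1.03, and it passed the filter only through TRaWT. Of all genes tested 1.73% were lower without overlap.

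Memory and activation genes mark antigen-experienced cells among CD4 T cells. Of 24 members 15 were negative and 9 positive, with a median of -0.17 (-0.41 to -0.01 over the alternatives), 13 negative and 11 positive without TRaGS replicate 2, and 0 were called. In this list 4 members lay lower without overlap, against 1.73% of all genes: Anxa1, Ly6c2, Ly6a and Ccr2, which are named after their values were seen. Ly6c2, a surface antigen of memory T cells, had 96.9, 105, 57.7 and 95.1 in TRaWT and 36.2, 29.7, 27.7 and 27.5 in TRaGS (-1.49 ± 0.79, limma adjusted p = 0.947). Ccr2, a chemokine receptor, had 153, 113, 160 and 124 against 104, 35.4, 81.0 and 90.5. Id2, a transcriptional regulator of effector cells, had 729 to 950 in TRaWT and 512, 349, 354 and 834 in TRaGS (-0.80 ± 0.28, limma adjusted p = 0.788).

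S100a4 went the other way in the same list. This calcium-binding protein had 191, 71.0, 113 and 69.5 normalised counts in TRaWT and 513, 238, 157 and 253 in TRaGS (1.37 ± 0.46, limma adjusted p = 0.771). In the list of S100 proteins and annexins 7 of 11 were positive and 4 negative, with a median of 0.30. Anxa1 and Anxa5 lay lower without overlap and Anxa7 higher, against 1.73% and 1.43% of all genes tested.

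Naive and quiescence factors had 18 of 24 positive and 6 negative, with a median of 0.16 (0.03 to 0.19 over the alternatives). Without TRaGS replicate 2 the count was 12 positive and 12 negative and the median 0.03. Klf3 was the 1 member called. Ets1, a transcription factor needed for naive T cell survival, separated the genotypes, at 2425, 2643, 2360 and 2584 in TRaWT and 3143, 3504, 3479 and 3607 in TRaGS. Its log2 fold change was 0.46 ± 0.18 (limma adjusted p = 0.943), and it is named after its values were seen. Il7r, the interleukin-7 receptor chain, had 1842, 2017, 2643 and 2613 against 2652, 4843, 2377 and 3020, with overlap. Thus the list held 1 called gene higher (Klf3) and 1 abundant gene lower without overlap (Igfbp4).

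The list of myosin, formin and actin regulation held 49 tested genes, 29 positive and 20 negative, and its median of 0.06 changed sign in some alternatives. Beside its 2 called genes, Daam1 and the class I myosin Myo1c lay lower without overlap, against 1.73% of all genes tested. In the BCL2 family and apoptosis list 15 of 25 were positive, with a median of 0.10. Beside Bcl2, the pro-apoptotic Bcl2l11 (BIM) had 184, 89.4, 182 and 170 in TRaWT and 223, 311, 248 and 354 in TRaGS without passing (0.89 ± 0.42, limma adjusted p = 0.947). Fadd, the adaptor of death receptors, had 35.1 to 104 in TRaWT and 0.978, 3.54, 31.8 and 27.5 in TRaGS. Among condensin, cohesin and SMC subunits 13 of 20 were positive with a median of 0.14, and the mean log2 level was 8.53 to 8.63 in TRaWT and 8.65 to 8.83 in TRaGS. The gap between the genotypes in that list was small, and without TRaGS replicate 2 its median was 0.07.

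Mitochondrially encoded mRNAs were positive in 7 of 8 members, with a median of 0.48, and 0 were called. mt-Nd4, a complex I subunit, had 29715, 26885, 21123 and 16685 normalised counts in TRaWT and 30196, 60452, 26714 and 24846 in TRaGS (0.53 ± 0.13, limma adjusted p = 0.0606). The value of 60452 belongs to TRaGS replicate 2, and without it the log2 fold change of mt-Nd4 was 0.24, the median of the list 0.08 and 6 of 8 members positive. mt-Nd4 was called in 3 of 24 alternatives and mt-Cytb in 2, all of which kept that library. The nuclear-encoded subunits of the respiratory chain, by contrast, had 44 of 73 positive with a median of 0.08, and 30 positive with a median of -0.06 without that library. Mitochondrial ribosomal proteins had 43 of 73 positive (median 0.16) and cytosolic ribosomal proteins 41 of 75 (median 0.07, and 22 positive with a median of -0.08 without TRaGS replicate 2).

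Histone genes had 13 of 18 positive with a median of 0.45 (0.34 to 0.65 over the alternatives). H3f3a and Hist1h1e lay higher without overlap, against 1.43% of all genes tested. Hist1h1e, a linker histone gene, was at 108 to 213 in TRaWT and 223 to 257 in TRaGS. Hist2h2ac lay lower, and Hist2h2bb, of the same histone cluster, was at 0 to 2.44 in TRaWT and 36.2, 60.8, 16.4 and 2.29 in TRaGS. Replication-dependent histone mRNAs mostly lack a poly(A) tail, which limits what a library of polyadenylated 3' ends shows of them.

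Thyroid hormone-regulated and transport genes bear most directly on the receptor. Of 13 members 9 were negative and 4 positive, with a median of -0.24 (-0.47 to -0.04 over the alternatives), 0 were called, and without TRaGS replicate 2 the median was -0.04 with 7 negative and 6 positive. Gpd2 and Klf9 lay lower without overlap, against 1.73% of all genes tested. Klf9, a Krüppel-like factor induced by thyroid hormone in many tissues, was low, at 6.46, 76.9, 7.62 and 7.32 against 1.96, 2.12, 4.10 and 3.44. It passed the filter only through TRaWT, chiefly the 76.9 of TRaWT replicate 2. Its lack of overlap therefore rests on a few reads and carries little weight. Among 21 receptors, partners and co-regulators 14 were positive with a median of 0.05, and without TRaGS replicate 2 there were 8 positive and the median was -0.05. Nr1d2, a clock repressor of the nuclear receptor family, was lower without overlap, at 58.5 to 135 in TRaWT and 10.8, 11.3, 45.1 and 12.6 in TRaGS (-2.33 ± 0.90, limma adjusted p = 0.907).

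Glycolysis and glucose uptake genes had 14 of 22 negative (median -0.21) and MHC class I presentation genes 14 of 22 negative (median -0.10). Inhibitory and costimulatory receptors had 16 of 23 positive (median 0.23), translation factors 24 of 38 (median 0.17) and glucocorticoid response genes 14 of 21 (median 0.18). No member of these 5 lists was called, and the sign of each of these medians was the same in all 11 alternatives. Vsir, the checkpoint receptor VISTA that restrains naive T cells, had 403 to 643 in TRaWT and 749 to 1090 in TRaGS (0.83 ± 0.27, limma adjusted p = 0.611). The T cell receptor list had 17 of 26 positive (median 0.09), with Cd3d at 1332 to 1902 against 1724 to 2675. Cell cycle genes had 12 of 25 positive (median -0.06), and lists for NF-kappaB signalling, JAK-STAT signalling, proteasome, lysosome, splicing and unfolded protein response had medians between -0.06 and 0.06, each changing sign in at least 1 alternative.

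Markers of other cell types were low, and some moved with genotype. Of 10 regulatory T cell markers 9 were tested, 7 positive and 2 negative. They summed to 0.0302% to 0.0403% of reads in TRaWT and 0.0390% to 0.0532% in TRaGS. Foxp3 had 113, 45.9, 50.1 and 115 normalised counts in TRaWT and 170, 43.1, 157 and 95.1 in TRaGS. Of 19 macrophage, monocyte and dendritic cell markers 11 were tested, 8 negative and 3 positive, with 0.0213% to 0.0528% of reads in TRaWT and 0.0137% to 0.0252% in TRaGS. As shares of all reads, the ranges of the genotypes overlapped for both lists. As summed normalised counts, the regulatory T cell markers did not overlap, at 943 to 1200 in TRaWT and 1313 to 1658 in TRaGS. By mean log2 level, the measure used for the lists above, they overlapped, at 5.60 to 6.45 in TRaWT and 6.25 to 6.84 in TRaGS. The macrophage, monocyte and dendritic cell markers overlapped as summed normalised counts too, at 745 to 1675 in TRaWT and 449 to 834 in TRaGS. The part of these shifts in the gene groups above was not tested. In sorted bulk cells, fewer cells of a type and less RNA per cell cannot be told apart.

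The spread between mice of 1 genotype set how large a difference could be called. For genes with a mean of 5 to 20 normalised counts the median SD was 1.64 log2 units in TRaWT and 1.75 in TRaGS. It was 0.47 and 0.61 for genes with a mean of 100 to 500, and 0.25 and 0.35 for genes at 500 and over. Of the 6 called genes 5 had a mean of at least 500, and Pdlim4 was in the class from 100 to 500. In every class most genes, 53.2% to 70.9%, had the larger SD in TRaGS. Without TRaGS replicate 2 the median SDs of TRaGS, now over 3 mice, were 1.56, 0.45 and 0.22 in these 3 classes, and the SD was larger in TRaGS in 46.5% to 51.0% of genes. CD25+ libraries of the same mice had smaller median SDs in every class, at 1.25 to 1.39 for the lowest and 0.19 for the highest.

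**Figure D4:**
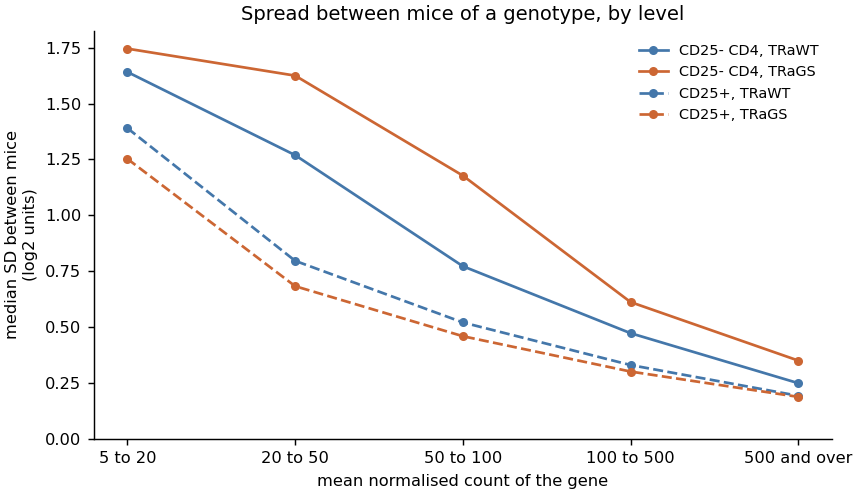
Median over genes of the SD between the 4 mice of a genotype (log2 units) in 5 classes of mean normalised count. Solid lines are CD25- CD4 cells and dashed lines CD25+ cells, and the orange solid line (TRaGS, CD25-) lies highest in each class, at 0.35 against 0.25 for TRaWT in the class of 500 and over.

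Some genes averaging 50 or more normalised counts varied widely between mice of 1 genotype. Rrm1, the large subunit of ribonucleotide reductase, had 105, 168, 29.4 and 12.2 normalised counts in TRaWT and 237, 4.24, 80.0 and 6.87 in TRaGS, so both genotypes held high and low mice. Clybl was even in TRaWT, at 55.5 to 82.9, but split in TRaGS, at 111, 2.12, 97.4 and 2.29. For Gpr155 TRaGS replicate 2 had 341, and the remaining libraries had 0.807 to 51.2. The genes Washc5, Hgsnat, Mfsd10, Trub2, Abhd10, Fastkd2, Immp1l, Tsc22d1 and Mrpl28 completed the 12 with the largest spread. Spread also differed between the groups of genes, with a median pooled SD of 0.27 for CD4 T cell identity, 0.37 for naive factors, 0.88 for interferon-stimulated genes and 1.17 for cholesterol genes, against 1.12 for all genes tested. Lower-level lists had the larger spread, as genes in general did.

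The genotype effect in these cells was then set beside that in CD25+ cells of the same mice, which were normalised separately, so that effects and not levels are compared. There limma called 106 of 11051 genes (0.959%). On each mouse's difference between subsets limma called 17 of 9914 genes (0.171%), 14 with the more positive effect in CD25- cells. Bcl2 had the smallest p. It was higher in TRaGS in CD25- cells (1.05) and lower in CD25+ cells, where it had 1871, 1952, 1586 and 1938 in TRaWT and 1306, 1162, 811 and 922 in TRaGS (-0.83). The difference between the effects was 1.87 ± 0.22 (limma adjusted p = 3.68e-10), and the genotypes did not overlap in either subset.

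For 4 more of the 6 called genes the effect differed between subsets: Myo6 (2.72 ± 0.49), Klf3 (1.01 ± 0.18), Resf1 (1.01 ± 0.19) and Smc4 (0.86 ± 0.15), with limma adjusted p from 0.000243 to 0.000884. The call was lost in 4 of 16 alternatives for Myo6 and Smc4 and in 3 for Klf3 and Resf1, and with quantile normalisation the Smc4 difference was 0.33 (adjusted p = 0.368). In CD25+ cells Myo6 had 61.6, 88.5, 82.8 and 129 in TRaWT and 164, 178, 88.1 and 119 in TRaGS (0.59, limma adjusted p = 0.593). Klf3, Resf1 and Smc4 had log2 fold changes of -0.15, -0.04 and -0.19 there. Pdlim4 had 0.71 in CD25+ cells at a low level of 12.9 to 39.0, and its difference of 1.03 ± 0.77 did not pass (limma adjusted p = 0.857).

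**Figure D5:**
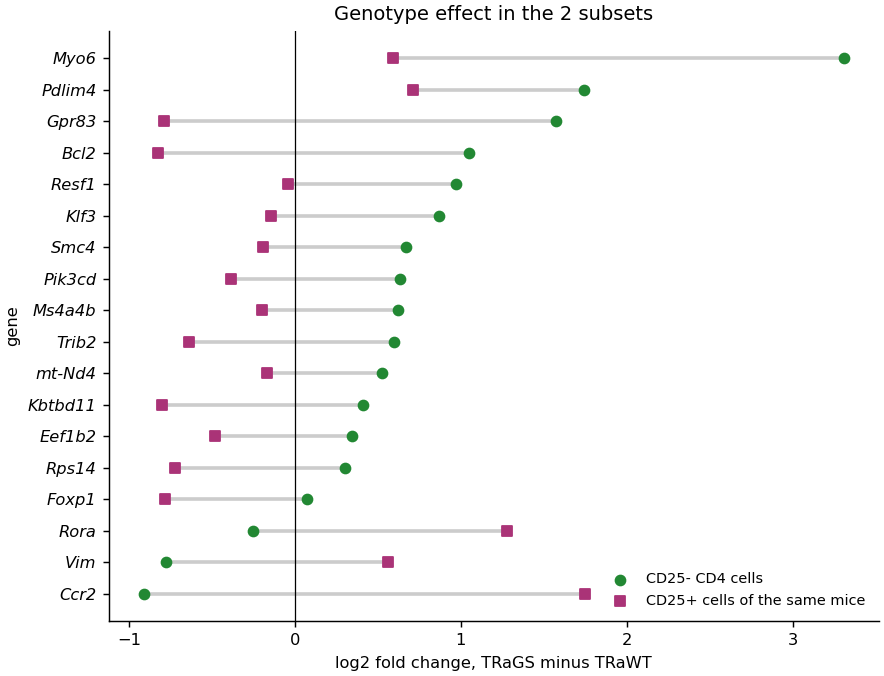
Log2 fold change (TRaGS minus TRaWT) in CD25- CD4 cells (green circles) and in CD25+ cells of the same mice (purple squares) for the 17 genes whose effect differed between subsets and for Pdlim4. Myo6 is far to the right in CD25- cells (3.31) and near 0.59 in CD25+ cells, while Bcl2 lies on opposite sides of 0.

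The difference pointed the other way in 3 of the 17 genes, Ccr2, Vim and Rora. Vim, the intermediate filament of activated and migrating cells, had 1007, 1073, 705 and 796 normalised counts in TRaWT and 456, 849, 459 and 394 in TRaGS CD25- cells (-0.78, limma adjusted p = 0.788), against a log2 fold change of 0.56 in CD25+ cells. Ccr2 had -0.91 in CD25- cells and 1.75 in CD25+ cells, a difference of -2.66 ± 0.56. Gpr83, a receptor enriched in regulatory T cells, had 1.58 and -0.79, a difference of 2.37 ± 0.51. Apart from the genes called in CD25- cells, the genes of this comparison were named after the test had called them. Leaving out both libraries of a mouse gave 10 to 27 genes, and a test on each gene's own spread gave 0 genes with 594 at an unadjusted p under 0.05.

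Position on chromosome 11 was examined because the changed allele of Thra is carried with its neighbours. Of 30 tested genes within 1 Mb of Thra 17 were negative and 13 positive, with a median of -0.22. Lower without overlap were 3 of them, Igfbp4, Smarce1 and Cacnb1, against 1.73% of all genes tested. None lay higher without overlap, against 1.43% of all genes tested. Within 5 Mb, 72 of 142 genes were negative and 70 positive, with a median of -0.01, and 4 lay lower and 0 higher without overlap. No gene was called in either window. Igfbp4 starts 272 kb from Thra, so for this gene the mutation and its chromosomal neighbourhood cannot be told apart. Pdlim4, also on chromosome 11, lies 44672 kb away.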

How the data were processed

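Messenger RNA 3' ends of 8 libraries of sorted CD25- CD4+ spleen T cells (4 TRaGS, 4 TRaWT) were analysed, with the 8 CD25+ libraries of the same mice as a comparison. The authors deposited normalised counts, 1 table per subset. Each value is a signal, a read count divided by 1 factor per library, per the deposited values themselves: 100% of the CD25- values came out as whole reads within 0.001, and the factors equal median-of-ratios size factors. The libraries were QuantSeq FWD, per the labels' protocols, and the build was GRCm38, per the submitters' processing notes. For the aligner and the counter the entry is: not given in the sources used here. Of 47643 gene identifiers 47224 matched a symbol.

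For the genotype comparison limma 3.58.1 was run in R 4.3.3 on log2(normalised count + 1), using its variance trend, over genes averaging 5 or more, with Benjamini-Hochberg adjustment and a threshold of 0.05. Because of the added 1, fold changes of genes at low levels are too small. The prior degrees of freedom were infinite, so each gene was given the spread of the trend. The difference between subsets was fitted on each mouse's difference, with mice joined by the mouse number in the titles. edgeR 4.0.16 and DESeq2 1.42.0 were run on the recovered reads as alternatives, with 3 and 10 genes called. On simulated data for the CD25- comparison (10426 genes), 2.2% of genes changed 2-fold and 21.6% of those changed 4-fold were recovered, and 5 of 124 calls were false. For the difference between subsets (9914 genes) these shares were 0.4% and 10%, with 0 of 52 calls false. Here the 2 subsets of a mouse were simulated independently, so these shares do not cover any likeness within a mouse. In both simulations the spread of each gene was taken over all 8 libraries of a subset, with the genotypes pooled.

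Named genes are the called genes, the 12 per direction of smallest p without overlap (leaving out predicted genes, pseudogenes, antigen receptor and immunoglobulin segments), the 2 members of smallest p and every called member of each list, a few fixed genes (among them Thra, Thrb, Cd4, Foxp3 and Il2ra), and the 12 genes of mean at least 50 with the largest spread. Some genes that this rule names are not reported here. Any other named gene was chosen after its values were seen. The comparison, its lists and its tests were chosen with earlier results of these data known.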

Additional observations from a re-analysis of the deposited data

Results flagged for a closer look

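A mouse far from the other 3 of its genotype was found in 13 of 164 groups of 4 values examined. Chance gives about 1 in 20 for independent, normally distributed values. That rate need not hold here, since gene values were not on a log scale and many genes were picked for separated genotypes. The same library was also behind several of the groups. The measure is the gap to the nearest mouse divided by the range of the group, set against Dixon's 95% critical value for 4. Within TRaGS it was 0.855 for Sh3bp5, 0.878 for Gpd2, 0.844 for Hmgn5, 0.847 for Anxa5 and 0.920 for Tmem64, in each of which TRaGS replicate 2 was the distant mouse, and 0.838 for Gpaa1, where it was replicate 3. It was 0.882 for the mean level of condensin, cohesin and SMC subunits, where replicate 1 was high, and 0.850 for the share of B cell marker reads, where replicate 2 was high. Within TRaWT it was 0.837 for Sh3bp5 (replicate 2 high), 0.927 for Pim1 (replicate 1 low), 0.894 for Prkdc (replicate 2 high), 0.885 for Thrb (replicate 2 high) and 0.849 for the mean level of Gimap GTPases.

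The genotype effect differed between CD25- and CD25+ cells by the limma test of the difference in 17 genes. The effect in CD25- cells minus that in CD25+ cells was 1.87 for Bcl2, 0.86 for Smc4, 2.72 for Myo6, 1.01 for Klf3, 0.70 for mt-Nd4, 1.02 for Rps14 and 1.01 for Resf1 on the log2 scale. It was 2.37 for Gpr83, 1.21 for Kbtbd11, 0.86 for Foxp1, 1.24 for Trib2, 0.82 for Ms4a4b, 0.83 for Eef1b2 and 1.02 for Pik3cd. The difference was negative for Vim (-1.34), Ccr2 (-2.66) and Rora (-1.53). With quantile normalisation the difference was 0.23 for mt-Nd4 and 0.33 for Smc4. Of 16 alternatives the call was lost in 11 for Foxp1, Eef1b2 and Pik3cd, in 9 for Ms4a4b, in 8 for Rora, in 7 for Trib2, in 5 for Ccr2 and Gpr83, in 4 for Smc4, Myo6, mt-Nd4 and Kbtbd11, in 3 for Klf3, Rps14, Resf1 and Vim and in 2 for Bcl2.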

How the results depend on the processing

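Of 24 alternatives for the CD25- comparison, the count of 6 called genes was 10 with DESeq2, 3 with edgeR, 2 with upper-quartile scaling, 1 with no filter and 0 on each gene's own variance, and 1 to 7 when each library was left out. With the replicate number as a block it was 4, without Resf1 and Smc4, and for the difference between subsets 18. Same-numbered libraries correlated at 0.015 to 0.071, so the numbers were not taken to pair mice. All 6 called genes were positive in every one of the 24 alternatives. For all but Smc4 the genotypes did not overlap, so leaving out libraries or changing weights or variance could not have reversed the sign. The count of 17 genes for the difference was 1 with no filter, 0 on own variance, 0 with the variance trend on the mean difference (chosen after seeing the data), and 10 to 27 when each mouse was left out. Of 88 named genes 2 reversed: Slfn9 (0.65) was -0.69 with TRaGS replicates 1 and 2 alone and -0.10 without TRaWT replicate 1, and Srsf9 (-0.78) was 0.12 without TRaGS replicate 2. Over the left-out libraries Slfn9 ran from -0.10 to 1.49 and Srsf9 from -1.39 to 0.12. The causes were not tested. At 2679119 to 5095278 reads, genes with a mean of 5 to 20 were at 0 in at least 1 library in 58.2% of cases.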
